A study of Mus musculus with 8 samples.

Results

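The genes described here are the D-type cyclins Ccnd1, Ccnd2 and Ccnd3, their kinases Cdk4 and Cdk6, the CDK inhibitors Cdkn1a, Cdkn1b, Cdkn2c and Cdkn2d, and their substrate Rb1. They were taken from the deposited count table by gene symbol, and all 10 were found once each among 55401 gene records. RNA came from haematopoietic stem cells (HSCs) sorted from bone marrow of C57BL/6 mice 8 weeks old, at about 3000 cells per sample. In the 4 Nynrin CKO libraries the mice were Nynrin fl/fl with Tie2-Cre, a Cre driven by a promoter active in endothelium and blood cells. The 4 control libraries came from Nynrin fl/fl mice without Cre, whose genotype is labelled wild type. Both groups carried the floxed alleles, and Cre was present in Nynrin CKO alone, so Cre and loss of Nynrin cannot be told apart. The labels do not tie each library to its own mouse. The p-values therefore reflect only how much these libraries vary, and some of that variation may be technical.

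The genes form the gate through which a resting cell leaves G1. D-type cyclins are made in response to growth signals and activate CDK4 and CDK6, which phosphorylate the retinoblastoma protein RB1 and release the E2F transcription factors that drive S phase genes. The INK4 inhibitors (Cdkn2c for p18, Cdkn2d for p19) bind CDK4 and CDK6 themselves, while the CIP/KIP inhibitors (Cdkn1a for p21, Cdkn1b for p27) bind cyclin-CDK complexes. Adult HSCs are mostly quiescent, and several of these proteins are known to set how often they divide.

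Total counts ran from 36942835 to 56437299 per library. The libraries also differed in ways that do not follow the labelled groups or follow them only in part. Reads on olfactory and vomeronasal receptor genes, which are chiefly used by sensory neurons of the nose, summed to 142 to 225 CPM in control 4 and Nynrin CKO 3 and 4. They summed to 891 to 1670 CPM in the other 5. CPM of receptor reads are counts relative to the total counts of a library, and CPM of single genes and marker lists to its TMM-scaled size. Controls 3 and 4 had 177719 and 224087 counts of Xist, the RNA of the inactive X, against 245 to 471 in the other 6. No Nynrin CKO library had high Xist counts, so this difference is partly confounded with genotype. Nynrin was at 30.1 to 47.5 CPM in controls against 8.22 to 12.7 CPM in Nynrin CKO, below every control (log2 fold change -1.85, edgeR adjusted p = 0.0345). Leaving out 1 library gave an adjusted p of 0.0240 to 0.123, under 0.05 only without control 3 or control 4, and summing Nynrin CKO libraries in pairs gave 0.402. The 12 HSC markers, among them Kit (1305 to 2361 CPM) and Procr (34.6 to 64.5 CPM), were detected in every library. They summed to 3289 to 4165 CPM in controls against 3699 to 4187 CPM in Nynrin CKO, with Kit the largest part. Mecom and Fgd5, 2 of the 12, were below every control in all Nynrin CKO libraries, against 4.83% of all tested genes, and 0 were above, against 9.52%. At an unadjusted edgeR p under 0.05, 5 of 12 were lower (Mecom, Fgd5, Hlf, Mllt3 and Slamf1) and 0 higher, against 5.78% and 13.2%. Of the 12 markers of granulocyte precursors and neutrophils none was at 0 throughout, and they had a summed level of 207 to 364 CPM in controls. That sum was 486 and 535 CPM in Nynrin CKO 1 and 2 and 4108 and 4143 CPM in Nynrin CKO 3 and 4. Nynrin CKO 3 and 4 also had a mitochondrial share of counts of 9.90% and 9.86%, against 5.98% to 7.44% in the other 6, and a TMM factor of 0.805 each, against 1.02 to 1.16. Whether either pair of Nynrin CKO libraries shares a source is not stated in the labels. In RNA from sorted pools, a change in the share of cells of a type and a change in RNA per cell cannot be told apart.

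In controls the kinases and Ccnd2 had the highest mean CPM per kilobase of exon of the 10 and Rb1 the lowest. Cdk4 stood first at 113 ± 17.6 CPM per kilobase (SD, n = 4), followed by Cdk6 at 41.1 ± 9.38 and Ccnd2 at 35.4 ± 1.70. Cdk4 lay above Cdk6 in all 4 controls, whereas the ranges of Cdk6 and Ccnd2 overlapped. Cdkn2d was the most abundant inhibitor at 22.2 ± 3.38 CPM per kilobase, in a range below Ccnd2 and overlapping that of Ccnd3 (14.3 ± 6.51). Ccnd1 came next at 4.96 ± 0.902, below every control value of Ccnd3. From there down the neighbours Ccnd1, Cdkn1a (3.88 ± 1.33), Cdkn1b (2.42 ± 0.154), Cdkn2c (1.90 ± 0.662) and Rb1 (1.14 ± 0.301 CPM per kilobase) overlapped pair by pair. The means in Nynrin CKO gave the same order except that Cdkn1a and Ccnd1 changed places, which held in Nynrin CKO 3 and 4 and not in Nynrin CKO 1 and 2.

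**Figure D1:**
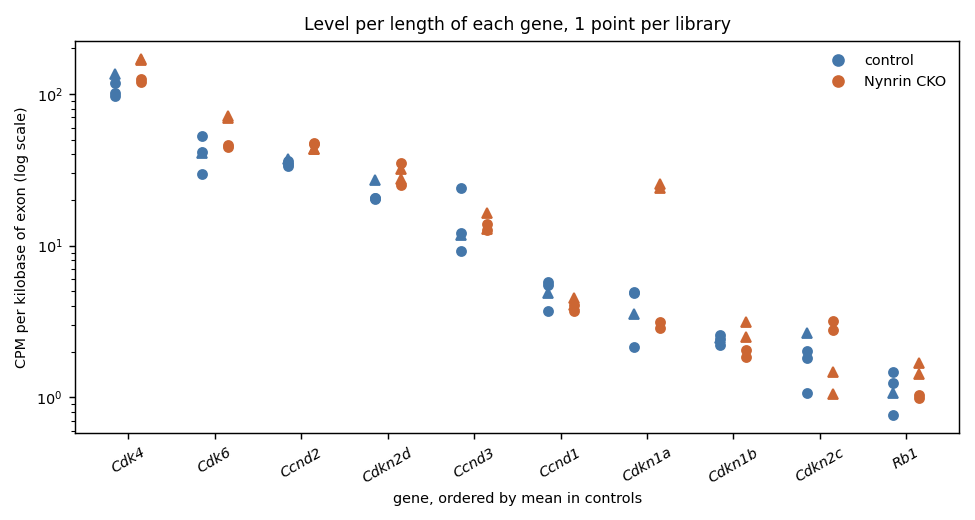
CPM per kilobase of exon (log scale) of the 10 genes, ordered by their mean in controls, with 1 point per library (circles for libraries with more receptor reads, triangles for those with few). Cdk4 leads in both groups, and Cdkn1a splits in Nynrin CKO between values near 3 and values near 24 CPM per kilobase.

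No gene of the 10 passed the test between the groups. With edgeR's quasi-likelihood test and adjustment over all 27573 tested genes, 0 of 10 were called higher and 0 lower, where 2.22% of all tested genes were called higher and 0.588% lower. At an unadjusted p under 0.05 there were 3 of 10 higher (Ccnd2, Cdkn2d and Cdkn1a) against 13.2% of tested genes, and 0 lower against 5.78%. DESeq2 called 1 of 10 higher (Ccnd2), where it called 1566 of 16571 genes higher. Limma-voom with quality weights called 2 of 10 higher (Ccnd2 and Cdkn2d), where it called 1649 of 27573 genes higher. All 4 Nynrin CKO libraries lay above all 4 controls for 1 of 10, Ccnd2, and for 9.52% of tested genes, so that share is close to the background. None of the 10 lay below all controls throughout, against 4.83%. The median log2 fold change of the 10 was 0.27 against -0.09 over all tested genes. Among libraries with more receptor reads the median was -0.03 and among those with few it was 0.26, where all tested genes had -0.04 and 0.06. The zero of the scale depends on the scaling: the all-gene median moved from -0.09 with TMM factors (trimmed mean of M values) to -0.34 with total counts.

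**Figure D2:**
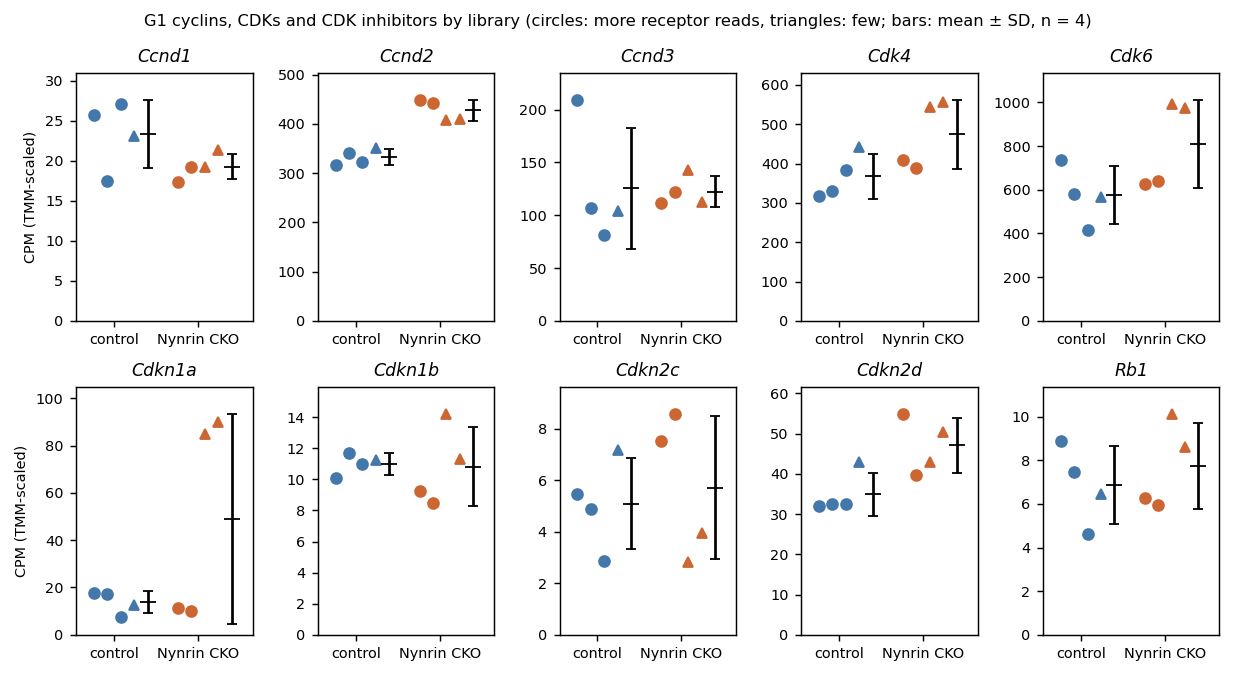
CPM of each of the 10 genes in the 4 control and 4 Nynrin CKO libraries, with the mean and SD of each group as a bar on the right (circles for libraries with more receptor reads, triangles for those with few). Ccnd2 is the gene whose groups do not overlap. Cdk4, Cdk6 and Cdkn1a are highest in Nynrin CKO 3 and 4, as are 16.1% of all tested genes.

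Ccnd2, the cyclin that made up most of the D-type cyclin RNA, had the smallest p of the 10. The gene (ENSMUSG00000000184) lies on chromosome 6 from 127125162 to 127152193 in mm10. It was at 316, 341, 323 and 351 CPM in controls 1 to 4 and at 449, 442, 409 and 409 CPM in Nynrin CKO 1 to 4. Every Nynrin CKO library was above every control, and the spread within each group was small. The means were 332.8 ± 15.98 and 427 ± 21.4 CPM (SD, n = 4 each), a ratio of 1.28 (two-sided exact permutation p = 0.029, the lowest possible value with 4 libraries per group). The log2 fold change was 0.36 ± 0.10 (SE; edgeR adjusted p = 0.0819). In the set with few receptor reads this was 0.22, and in the set with more it was 0.45. The adjusted p was 0.0164 with DESeq2, 0.0166 with limma-voom, 0.0458 with a term for library set and 0.0325 in the set with more receptor reads alone, where Nynrin CKO 1 and 2 are the whole group. These are the 4 of 22 alternatives in which it passed. The highest values among the others were 0.759 with total counts and 0.660 with Nynrin CKO libraries summed in pairs, and it was 0.187 with RLE factors. The log2 fold change was 0.10 with total counts. Relative to the median of all tested genes it was 0.44 to 0.46 under the 4 scalings tried. A change of scaling shifts all genes nearly alike and the subtraction removes that shift, so these values do not test the scaling. Some markers of other blood cells also kept the groups apart, as Ccnd2 did and as 9.52% of tested genes did. Of 10 erythroid markers 3 did so (Car1, Car2 and Klf1, all above controls) and the other 7 overlapped. Their sum of 1113 to 1417 CPM in controls and 2077 to 2468 CPM with the deletion was mostly Car2, at 89.7% of it in controls. Among B cell markers Cd79b, Jchain and Cd79a were above every control, while Pax5, Ms4a1 and Vpreb1 overlapped. The T and NK cell list had 1 such marker of 10, Nkg7, which took 82.6% of the list's sum in controls, and Cd3e, Cd3d, Cd3g, Cd8a and Trac overlapped at under 1.7 CPM. The counts were 9 of 12 for the granulocyte list, 4 of 10 for macrophages and 0 of 10 for endothelium. No marker of these lists was at 0 in all libraries, and the part of such cells in the level of Ccnd2 was not tested.

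Ccnd1 and Ccnd3 did not separate the groups. Ccnd1 (chromosome 7, 144929931 to 144939925) was at 25.8, 17.5, 27.1 and 23.1 CPM in controls 1 to 4 and at 17.4, 19.2, 19.2 and 21.3 CPM in Nynrin CKO 1 to 4. Control 2 lay among the Nynrin CKO values, and the other 3 controls lay above all of them. Its log2 fold change was -0.28 ± 0.15 (SE; edgeR adjusted p = 0.385). Exons of Ccnd1 share 1100 bases with those of LTO1 on the opposite strand, which held more counts than Ccnd1, and no source used here states whether counting used strand, so the level of Ccnd1 is uncertain.

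Ccnd3 (chromosome 17, 47505051 to 47599689) was at 209 CPM in control 1, at 107, 81.3 and 104 CPM in controls 2 to 4, and at 111, 122, 143 and 113 CPM in Nynrin CKO 1 to 4. Control 1 alone stood above the Nynrin CKO range, and the other 3 controls stood below it. The log2 fold change of -0.04 (standard error 0.27, edgeR adjusted p = 0.964) became 0.33 without control 1 (adjusted p = 0.350). Exons of Ccnd3 share 361 bases with those of Bysl on the opposite strand.

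As shares of summed CPM per kilobase of the D-type cyclins, Ccnd2 took 65.4% ± 8.00 in controls against 71.6% ± 2.68 in Nynrin CKO (SD, n = 4 each). Ccnd3 took 25.5% ± 8.51 and 22.0% ± 2.50, and Ccnd1 9.14% ± 1.88 and 6.47% ± 0.706. The share of Ccnd2 was lowest, 53.4%, in control 1, where Ccnd3 was highest. These shares describe the libraries and were not tested.

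Cdk4 and Cdk6 were highest in the same pair of libraries, Nynrin CKO 3 and 4. With Cdkn1a, 3 of the 10 genes were above the other 6 libraries in both, against 16.1% of all tested genes. None of the 10 was below the other 6 in both, against 20.3%. Cdk4 (ENSMUSG00000006728, chromosome 10, 127063534 to 127067920) was at 316, 330, 384 and 442 CPM in controls 1 to 4, and at 409, 388, 544 and 556 CPM in Nynrin CKO 1 to 4. Nynrin CKO 1 and 2 fell between the highest controls. The means were 368 ± 57.2 and 474 ± 88.1 CPM (SD, n = 4 each), with a log2 fold change of 0.37 ± 0.17 (SE; edgeR adjusted p = 0.277; two-sided exact permutation p = 0.114). Libraries with more receptor reads gave 0.22 and those with few gave 0.32. Exons of Cdk4 share 641 bases with those of Tspan31 on the opposite strand, whose counts equal 30.3% of those of Cdk4.

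The 250 bases before the RefSeq start of Cdk4 are shown because they hold 4 copies of the E-box CACGTG, letters that MYC and other factors are known to bind. The window is chr10:127063285-127063534 on the plus strand of GRCm38.p6, written 5′ to 3′, and the capitals mark the E-boxes and 1 GC box (GGGCGG, here on the other strand as CCGCCC).
Cdk4 promoter: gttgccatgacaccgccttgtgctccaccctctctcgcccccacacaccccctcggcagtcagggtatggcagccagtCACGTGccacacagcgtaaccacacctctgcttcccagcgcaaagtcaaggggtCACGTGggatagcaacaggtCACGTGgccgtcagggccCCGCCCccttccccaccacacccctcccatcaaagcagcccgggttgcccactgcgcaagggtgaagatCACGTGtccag
An E-box was found in 6.02% of 32851 RefSeq promoter windows of the same length, on either strand, and 4 or more copies in 7 windows. Of the 7 genes of the group with a RefSeq window, Cdk6 also held 1 E-box, and none held the E2F letters TTTGGCGC or TTTCCCGC on either strand, which 0.417% and 0.895% of windows hold. A match describes the letters and no binding was measured. Myc, chosen here after its values were seen, was at 447 to 574 CPM in controls and at 457 and 454 CPM in Nynrin CKO 1 and 2. In Nynrin CKO 3 and 4 it was at 880 and 885 CPM, above the other 6 libraries, as were 16.1% of all tested genes. Mycn went the other way, at 78.6 to 126.5 CPM in controls, 79.2 and 77.2 CPM in the first pair and 64.6 and 60.0 CPM in the second. Mycl was at no more than 0.869 CPM in any library. The part of these genes in the level of Cdk4 was not tested.

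Cdk6 (ENSMUSG00000040274, chromosome 5, 3341485 to 3473180), the kinase whose level is known to govern how fast HSCs leave quiescence, was at 736, 582, 415 and 568 CPM in controls 1 to 4. It was at 626, 641, 994 and 975 CPM in Nynrin CKO 1 to 4. Nynrin CKO 3 and 4 were above every control, and Nynrin CKO 1 and 2 were within the control range. The log2 fold change was 0.49 ± 0.22 (SE; edgeR adjusted p = 0.269; two-sided exact permutation p = 0.143). In the set with few receptor reads, which has 1 control, this was 0.79, and in the set with more it was 0.13. With Nynrin CKO 1 and 2 left out the adjusted p was 0.0293, and with Nynrin CKO 3 and 4 left out it was 0.958. Cdk4 made up 73.2% ± 6.67 of the summed CPM per kilobase of both kinases in controls and 71.8% ± 1.55 in Nynrin CKO.

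Cdkn1a, the p21 inhibitor and a classical target of p53, had the largest log2 fold change and the widest spread in Nynrin CKO relative to its mean. The gene (ENSMUSG00000023067) lies on chromosome 17 from 29090976 to 29100727. It was at 17.6, 17.5, 7.66 and 12.5 CPM in controls 1 to 4, at 11.1 and 10.1 CPM in Nynrin CKO 1 and 2, and at 84.9 and 90.1 CPM in Nynrin CKO 3 and 4. The first pair lay within the control range and the second pair far above it, with raw counts of 3853 and 3750 against 326 to 733 in the other 6 libraries. Nynrin CKO 3 and 4 averaged 8.24 times Nynrin CKO 1 and 2. Over all 8 libraries the log2 fold change was 1.83 ± 0.71 (SE; edgeR adjusted p = 0.197; two-sided exact permutation p = 0.343). Libraries with more receptor reads gave -0.42 and those with few gave 2.80. Without Nynrin CKO 1 and 2 it was 2.63 (adjusted p = 7.89e-04), and without Nynrin CKO 3 and 4 it was -0.42 (adjusted p = 0.736).

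The 250 bases before the upstream RefSeq start of Cdkn1a are shown because they hold a match to the p53 element, a pair of decamers that p53 binds as a tetramer. The window is chr17:29090729-29090978 on the plus strand of GRCm38.p6, written 5′ to 3′, and the capitals mark the match.
Cdkn1a promoter: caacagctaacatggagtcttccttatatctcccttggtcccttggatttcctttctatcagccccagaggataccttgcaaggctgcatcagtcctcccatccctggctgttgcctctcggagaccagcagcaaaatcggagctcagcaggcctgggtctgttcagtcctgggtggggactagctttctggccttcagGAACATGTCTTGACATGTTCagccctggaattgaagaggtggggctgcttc
The search allowed 1 mismatch in all, outside the cores of the decamers, an allowance made after the sequence was seen, and 15 of 32851 RefSeq windows hold such a match on either strand. The window before the other start of Cdkn1a held none, and no other gene of the group with a window held one.

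Other genes known to be targets of p53 were counted in the same libraries. Of 20 tested, 7 were above the other 6 libraries in both Nynrin CKO 3 and 4, among them Phlda3, Btg2 and Sesn1, against 16.1% of all tested genes. Another 5 were below the other 6 libraries in both, among them Zmat3 and Ccng1, against 20.3%. Between the groups 1 of 20 rose and none fell, against 2.22% and 0.588% of all tested genes. It was Bax, the pore-forming protein of apoptosis, at 24.9 to 34.2 CPM in controls against 39.8 to 44.2 CPM in Nynrin CKO, with a log2 fold change of 0.56 (edgeR adjusted p = 0.0457). The median log2 fold change of the list was 0.22 against -0.09 over all tested genes. The Bax call was lost when any single library other than control 4 was left out, at adjusted p = 0.0692 to 0.286. Those fits called at most 6 of all tested genes higher. The log2 fold change of Bax was 0.47 to 0.68 with any 1 library left out.

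Immediate-early genes, which answer within minutes to growth signals and to handling of cells, were high in the same libraries as Cdkn1a. Of 12 such genes, a list chosen after their values were seen, 11 were above the other 6 libraries in both Nynrin CKO 3 and 4, and 9 were below the other 6 in both Nynrin CKO 1 and 2. Over all tested genes these shares were 16.1% and 6.15%. Btg2 is on both this list and that of p53 targets, so it was counted in each. Nr4a1 was at 88.6 to 169 CPM in controls, at 20.2 and 21.0 CPM in Nynrin CKO 1 and 2, and at 1342 and 1204 CPM in Nynrin CKO 3 and 4. Egr1 was at 317 to 842 CPM in controls, 203 and 219 CPM in the first pair and 2442 and 2397 CPM in the second. The 12 markers of granulocyte precursors and neutrophils also separated the pairs. In both Nynrin CKO 3 and 4, 10 of 12 were above the other 6 libraries, against 16.1% of all tested genes. Mpo, a granule enzyme of these precursors, was at 60.8 to 100.6 CPM in controls, 165 and 159 CPM in the first pair, and 2829 and 2824 CPM in the second. Of 10 macrophage markers 9 were above the other 6 in the second pair, again against 16.1%. The 10 summed to 80.0 to 111 CPM in controls and 258 and 263 CPM in that pair. Of 10 endothelial markers 5 were above the other 6 libraries in that pair, among them Stab2 and Plvap, against 16.1%. Another 2, Vwf and Tie1, were below the other 6, against 20.3% of all tested genes. The mitochondrial share was highest in the second pair as well, at 9.90% and 9.86%. The part of these genes, cells and signs of library quality in the levels of Cdkn1a, Cdk4 and Cdk6 was not tested.

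Cdkn1b, the p27 inhibitor, was among the steadiest of the 10 in controls. It (chromosome 6, 134920401 to 134925513) was at 10.1, 11.7, 10.97 and 11.3 CPM in controls 1 to 4 and at 9.29, 8.46, 14.2 and 11.3 CPM in Nynrin CKO 1 to 4. Nynrin CKO 1 and 2 lay below every control, Nynrin CKO 3 lay above every control, and Nynrin CKO 4 lay among them. Cdkn1b was the 1 gene of the 10 below the other 6 libraries in both Nynrin CKO 1 and 2, against 6.15% of all tested genes. The log2 fold change was -0.02 ± 0.18 (SE; edgeR adjusted p = 0.967). In the set with few receptor reads this was 0.18, and in the set with more it was -0.30.

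Cdkn2d, the p19 INK4 inhibitor, had the second smallest p. The gene (ENSMUSG00000096472) lies on chromosome 9 from 21288410 to 21291308. It was at 32.0, 32.4, 32.4 and 42.9 CPM in controls 1 to 4 and at 54.9, 39.8, 43.0 and 50.5 CPM in Nynrin CKO 1 to 4. Control 4 stood apart from the other controls, and it alone overlapped the Nynrin CKO range. The means were 34.9 ± 5.32 and 47.1 ± 6.90 CPM (SD, n = 4 each), with a log2 fold change of 0.43 ± 0.15 (SE; edgeR adjusted p = 0.137; two-sided exact permutation p = 0.0571). Libraries with more receptor reads gave 0.55 and those with few gave 0.12. Without control 4 the adjusted p was 0.0563, and with limma-voom it was 0.0499.

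Cdkn2c, the p18 INK4 inhibitor, went opposite ways in the pairs of Nynrin CKO libraries. It (chromosome 4, 109660876 to 109667189) was at 5.46, 4.88, 2.87 and 7.18 CPM in controls 1 to 4, at 7.51 and 8.59 CPM in Nynrin CKO 1 and 2, and at 2.82 and 3.94 CPM in Nynrin CKO 3 and 4. The first pair lay above every control, and the second lay at the low end of the control range or just under it. In both Nynrin CKO 1 and 2, 2 of the 10 genes (Ccnd2 and Cdkn2c) were above the other 6 libraries, against 9.63% of all tested genes. The log2 fold change was 0.165 ± 0.40 (SE; edgeR adjusted p = 0.886), and libraries with more receptor reads gave 0.87 and those with few gave -1.09. Raw counts of 122 to 416 lie behind these values. The other INK4 genes, Cdkn2a and Cdkn2b, were too low to be tested, at no more than 0.133 and 0.564 CPM in any library.

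As shares of the summed CPM per kilobase of the 4 inhibitors, Cdkn2d took 73.0% ± 4.93 in controls (SD, n = 4), 81.4% and 76.2% in Nynrin CKO 1 and 2, and 49.3% and 52.2% in Nynrin CKO 3 and 4. Cdkn1a took 12.8% ± 4.42 in controls, 7.30% and 8.58% in the first pair and 43.1% and 41.3% in the second. The inhibitor mix of Nynrin CKO 1 and 2 was thus nearer to that of controls than to that of Nynrin CKO 3 and 4.

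**Figure D3:**
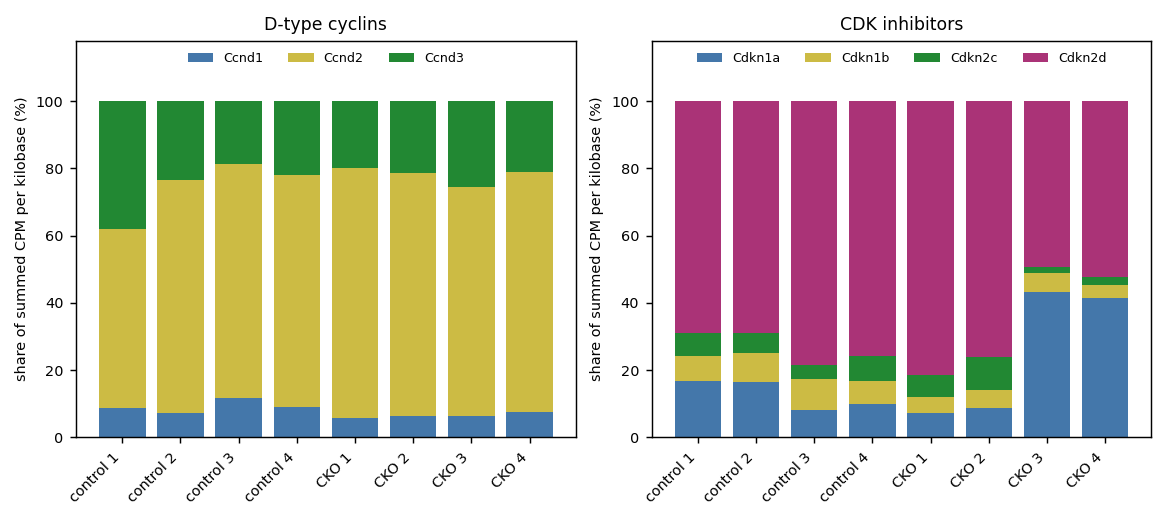
Share (%) of each D-type cyclin (left) and each of 4 CDK inhibitors (right) in the summed CPM per kilobase of its family, with 1 stacked bar per library. Ccnd2 leads the cyclins in all 8 libraries, and Cdkn1a takes 43.1% and 41.3% of the inhibitors in Nynrin CKO 3 and 4 against 7.30% to 16.8% in the other 6.

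Rb1, the substrate of the kinases, had the lowest mean per kilobase of the 10 in both groups. It (chromosome 14, 73183673 to 73325822) was at 8.91, 7.47, 4.61 and 6.48 CPM in controls 1 to 4 and at 6.27, 5.97, 10.1 and 8.60 CPM in Nynrin CKO 1 to 4. The groups overlapped, and Nynrin CKO 3 alone was above every control. The log2 fold change was 0.17 ± 0.26 (SE; edgeR adjusted p = 0.799). Exons of Rb1 share 488 and 408 bases with Rcbtb2 and Lpar6 on the opposite strand, and each of these held over 8 times the counts of Rb1, so its level is uncertain. The related pocket proteins are Rbl1 (p107) and Rbl2 (p130, the form bound to E2F in resting cells), and neither passed. Rbl1 had a log2 fold change of -0.16 (adjusted p = 0.619). Rbl2 had -0.22 (adjusted p = 0.757) and was at 54.1 to 70.9 CPM in controls, at 77.8 and 70.4 CPM in Nynrin CKO 1 and 2, and at 31.2 and 36.1 CPM in Nynrin CKO 3 and 4.

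**Figure D4:**
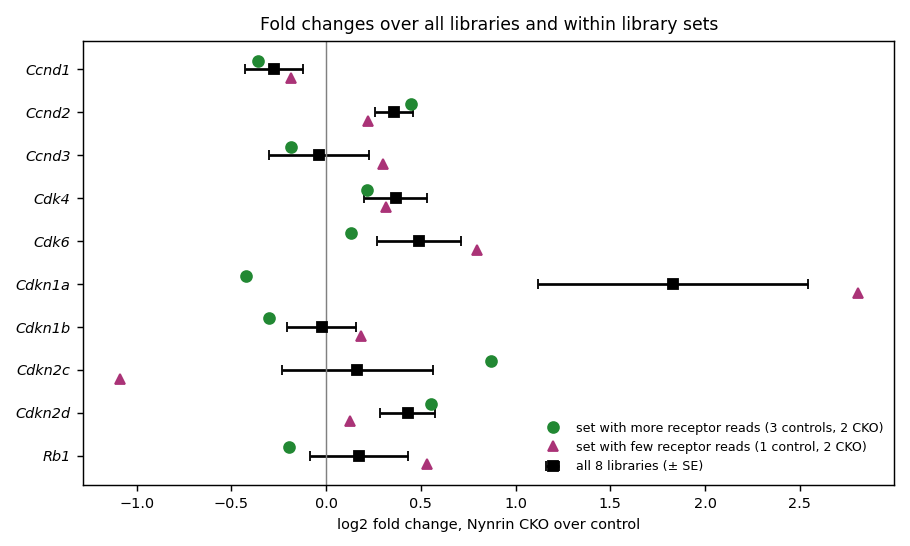
Log2 fold change of Nynrin CKO over control for each of the 10 genes, over all 8 libraries (squares, ± SE) and in the sets with more (circles, 3 controls and 2 Nynrin CKO) and few (triangles, 1 control and 2 Nynrin CKO) receptor reads. Ccnd2, Cdk4, Cdk6 and Cdkn2d are positive in all 3, Ccnd1 is negative in all 3, and Ccnd3, Cdkn1a, Cdkn1b, Cdkn2c and Rb1 change sign between the sets.

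Further along the G1 to S path, 3 of 32 tested partners rose and none fell, where 2.22% of all tested genes were called higher and 0.588% lower. At an unadjusted edgeR p under 0.05, 8 of the 32 were higher and 1 lower, against 13.2% and 5.78% of all tested genes. The median log2 fold change was 0.20 against -0.09 over all tested genes. Ccne1, the cyclin that activates CDK2 late in G1, was at 11.2, 11.5, 14.1 and 10.5 CPM in controls 1 to 4 and at 20.4, 18.2, 19.4 and 19.3 CPM in Nynrin CKO 1 to 4. Its groups did not overlap, and its log2 fold change was 0.70 ± 0.13 (SE; edgeR adjusted p = 0.0408), and was 0.65 in libraries with more receptor reads and 0.88 in those with few. Cdk7, the kinase that activates CDKs, was at 54.2 to 65.9 CPM in controls against 75.9 to 87.7 CPM in Nynrin CKO (log2 fold change 0.48, adjusted p = 0.0451). Rbx1, the RING subunit of the SCF ubiquitin ligases, was at 78.6 to 117 CPM in controls against 147 to 165 CPM in Nynrin CKO (log2 fold change 0.66, adjusted p = 0.0448). The calls were lost when any single library other than control 4 was left out, at adjusted p = 0.0580 to 0.135 for Ccne1, 0.0654 to 0.315 for Cdk7 and 0.0619 to 0.277 for Rbx1. Those fits called at most 6 of all tested genes higher. With any 1 library left out the log2 fold change was 0.67 to 0.74 for Ccne1, 0.37 to 0.55 for Cdk7 and 0.55 to 0.76 for Rbx1. Summing Nynrin CKO libraries in pairs called 0 of all tested genes in either direction. None of the calls of Ccne1, Cdk7, Rbx1, Bax and Rrm2 remained there, at edgeR adjusted p = 0.445 to 0.505. Some markers of other blood cells, given beside Ccnd2, kept the groups apart too, and their part in these calls was not tested. Ccne2 had a log2 fold change of 0.08 (adjusted p = 0.840), and Cdk2 had 0.21 (adjusted p = 0.712). Cdkn1c, the imprinted p57 inhibitor known for holding HSCs in quiescence, was low here at 0.764 to 2.07 CPM in controls against 0.953 to 2.27 CPM in Nynrin CKO (log2 fold change 0.19, adjusted p = 0.884).

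Among 25 genes known to be driven by E2F, 1 rose and none fell, against 2.22% and 0.588% of all tested genes. The median log2 fold change was 0.32 against -0.09 over all tested genes. It was Rrm2, the regulated subunit of ribonucleotide reductase, at 53.4 to 74.3 CPM in controls against 90.4 to 124.5 CPM in Nynrin CKO (log2 fold change 0.76, edgeR adjusted p = 0.0431). The Rrm2 call was lost when any single library other than control 4 was left out, at adjusted p = 0.0559 to 0.183. Those fits called at most 6 of all tested genes higher. The log2 fold change of Rrm2 was 0.69 to 0.84 with any 1 library left out. At an unadjusted edgeR p under 0.05, 8 of the 25 were higher and 0 lower, against 13.2% and 5.78% of all tested genes. All 4 Nynrin CKO libraries lay above all 4 controls for 6 of the 25 and below them for 0, against 9.52% and 4.83%. In both Nynrin CKO 3 and 4, 20 of the 25 were above the other 6 libraries and none was below, against 16.1% and 20.3% of all tested genes. In both Nynrin CKO 1 and 2, 2 of 25 were above the other 6 and 6 were below, against 9.63% and 6.15%. The median was 0.13 in libraries with more receptor reads and 0.39 in those with few. The granulocyte and macrophage markers given above were highest in the same pair of libraries, and their part in the levels of E2F targets was not tested. Among 20 transcription regulators of G1 genes none passed (edgeR), while 3 were higher and 1 lower at an unadjusted p under 0.05, near the 13.2% and 5.78% of all tested genes. Smad4, the shared mediator of TGF-beta signals, had a log2 fold change of 0.58 (adjusted p = 0.0561), and Mecom, a transcription factor of HSCs, had -0.98 (adjusted p = 0.0746).

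Across the 8 libraries Cdk6 and Cdkn1a were the most alike of the 8 genes compared, with Pearson's r = 0.904 on log2(CPM + 1), followed by Ccnd2 and Cdkn2d with r = 0.813. Ccnd1 and Ccnd2 were the most opposed, with r = -0.703. The 8 libraries share a split into pairs within Nynrin CKO and differ in depth, so these values describe the libraries and carry no test. Cdkn2c and Rb1 were left out, at a mean under 10 CPM. Among 9856 genes compared, the closest to Ccnd2 were Rabepk and Ccdc32 (r = 0.984 and 0.983), to Cdk4 Ncf4 and Sephs2 (0.998 and 0.994), to Cdk6 Dyrk3 and Rnf139 (0.984 and 0.982), to Cdkn1a Slf2 and Hp1bp3 (0.997 and 0.995) and to Cdkn2d Rab4b and Rps6kb1 (0.985 and 0.978). The closest to Ccnd1, Ccnd3 and Cdkn1b were Gmds (0.915), Ttc30b (0.942) and Zfp704 (0.955).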

How the data were processed

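The table deposited by the authors holds raw read counts of genes, 1 column for each library, per the file headers. The submitters' processing notes name the build mm10. No source used here names the aligner, the counter or the strand setting. Counts of 4 Nynrin CKO and 4 control libraries went into edgeR 4.0.16 (R 4.3.3). Here filterByExpr kept 27573 genes, TMM factors set the scale, and a robust quasi-likelihood test was adjusted by Benjamini-Hochberg over all tested genes at 0.05. CPM use the same factors, except for receptor reads, which are relative to total counts. Lengths are the union of GENCODE M21 exons. Single genes were compared by exact permutation over 70 assignments on log2(CPM + 1) with scipy 1.17.1. Libraries below and above 300 CPM of receptor reads formed the sets. Values for each set come from 1 fit with a mean for every combination of set and group. Control 4 is the lone control of its set and is assumed to vary like the rest. Promoter sequences are RefSeq's on GRCm38.p6, the assembly of mm10. Alternatives were other scalings, filters, DESeq2 1.42.0, limma-voom (limma 3.58.1), a replicate term, a library set term and each library left out. Subsets without pairs of Nynrin CKO libraries, the set with more receptor reads alone and Nynrin CKO libraries summed in pairs were chosen after seeing the data.

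The genes, lists and tests were chosen with earlier results of these data known. Named were the 10 genes, Nynrin, Ccne1, Ccne2, Cdk2, Cdkn1c, Rbl1 and Rbl2, and from each list up to 4 passing genes with the smallest p, or the 2 with the smallest p where none passed, and the genes closest in pattern by Pearson's r. Others named were chosen after their values were seen. The count over the whole B cell marker list is not reported here.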

Additional observations from a re-analysis of the deposited data

Results flagged for a closer look

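In controls, Cdkn2d was at 42.9 CPM in control 4 and at 32.0 to 32.4 CPM in the other 3, a gap of 0.958 of the group's range. Rbl1 was at 61.6 CPM in control 3 and at 48.0 to 50.2 CPM in the other 3, a gap of 0.838 of the range. Both gaps exceed Dixon's critical value for a group of 4 samples. Chance alone marks about 1 in 20 groups in this way, and 46 groups were examined.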

How the results depend on the processing

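Of the 10 genes, the counts called stayed at 0 higher and 0 lower with every single library left out, with each scaling and filter, without robust estimation, with the replicate block, without Nynrin CKO 3 and 4, and with Nynrin CKO libraries summed in pairs. Some of these settings called few genes of any kind. Leaving out any library other than control 4 called 1 to 6 higher and 0 to 4 lower over all tested genes. The replicate block and the summed pairs called 0 and 0. A count of 0 of 10 under those settings therefore does not test stability. The count called higher was 1 with DESeq2, with the library set term and in the set with more receptor reads alone (Ccnd2 in each), 2 with limma-voom (Ccnd2 and Cdkn2d), and 2 without Nynrin CKO 1 and 2 (Cdk6 and Cdkn1a). Ccnd1, Ccnd2, Cdk4, Cdk6 and Cdkn2d kept their direction under all 22 alternatives.

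Over all tested genes, 611 higher and 162 lower calls became 13 and 22 with RLE factors, 225 and 251 with upper-quartile factors and 59 and 318 with total counts. They became 707 and 475 with a filter of 1 CPM in 4 libraries and 33 and 16 with no filter. DESeq2 gave 1566 and 892, limma-voom 1649 and 504, and the library set term 1221 and 408. Leaving out control 4 gave 1129 higher and 243 lower, and leaving out any other single library gave 1 to 6 higher and 0 to 4 lower. The set with more receptor reads alone gave 1311 and 857, the fit without Nynrin CKO 3 and 4 132 and 40, and the fit without Nynrin CKO 1 and 2 2055 and 2970. Nynrin CKO libraries summed in pairs gave 0 and 0 (edgeR), with 1568 higher and 1454 lower at an unadjusted p under 0.05.

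With the replicate block, edgeR called 0 higher and 0 lower, with 3456 and 1688 at an unadjusted p under 0.05, and Ccnd3 was at 0.0553. The numbers are not known to pair the samples: same-numbered deviations correlated at 0.15, 0.12, -0.13 and 0.28, and 3 of 4 controls correlated best with their own number.

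The following log2 fold changes turned sign, all of genes that did not pass with all 8 libraries (edgeR). Rbl2 passed without Nynrin CKO 1 and 2, at -0.95, and Cdkn1a did as given above. With total counts Cdkn2c was at -0.0183, Rb1 at -0.12, Ccne2 at -0.16, Cdk2 at -0.0361 and Cdkn1c at -0.13. Ccne2 was at -0.026 with upper-quartile factors and -0.0063 with a filter of 1 CPM. With limma-voom Rb1 was at -0.0289 and Cdkn1c at -0.10. In the set with more receptor reads alone Cdkn1a was at -0.43, Rb1 at -0.20, Cdkn1c at -0.38 and Rbl2 at 0.29. Without Nynrin CKO 3 and 4 they were at -0.42, -0.21, -0.21 and 0.19. Without Nynrin CKO 1 and 2 Cdkn1b was at 0.17, Cdkn2c at -0.64 and Ccne2 at -0.19. With 1 library left out, Ccnd3 ran from -0.26 to 0.33, Cdkn1b from -0.17 to 0.087, Cdkn2c from -0.12 to 0.40, Rb1 from -0.0355 to 0.33 and Cdkn1c from -0.0796 to 0.51. The causes were not tested. The lowest counts behind the 10 genes were 122 for Cdkn2c and 196 for Rb1, and Cdkn1c was at 0.764 to 2.27 CPM.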
